A study of Mus musculus with 3 samples.

Results

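The genes described here encode the proteins of the cytosolic ribosome, the particle that translates messenger RNA. They were found by symbol, as every gene of the Rpl, Rps and Rplp series with a number, together with Rpsa, leaving out 10 symbols of S6 kinases and 2 of pseudogenes. This gave 87 of the 17121 genes of the table. Of these, 79 were counted as core ribosomal proteins, with 45 in the large subunit, 31 in the small subunit and 3 in the P-stalk, a flexible arm of the large subunit. A further 7 were paralogs or variants of a core gene. The remaining gene, Rps19bp1, encodes a nucleolar protein that binds the ribosomal protein Rps19 and is not itself part of the ribosome. Rpl32l and Rpl37rt stood among the 79, although their symbols mark them as relatives of Rpl32 and Rpl37, and 77 genes were left without them.

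The RNA came from CD8+ T cells, which kill infected or tumour cells, isolated from spleen and lymph node of wild-type mice, with 1 sample in each of 3 groups. The aged TRM sample came from mice of 18 months and was cultured for 3 days with 1 µg/ml of anti-CD3 and anti-CD28 antibodies, 20 ng/ml of IL-15 and 5 ng/ml of TGF-beta, a condition named after tissue-resident memory T cells (TRM). The young TRM sample came from mice of 6 weeks and had the same culture, and the young TCR sample, also from mice of 6 weeks, received only the antibodies, which trigger the T cell receptor (TCR) together with a co-stimulatory receptor. All 3 groups had thus been stimulated through the receptor, and the labels do not say how many mice gave cells or whether cells were pooled.

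Ribosomal proteins are made in matched amounts in growing cells, and a T cell that has been activated raises ribosome production before it divides. In mammals most of their mRNAs begin with a cytosine followed by a run of pyrimidines, the terminal oligopyrimidine (TOP) element, which places their translation under control of the TOR kinase and the RNA-binding protein Larp1. The mRNA level measured here does not show how much protein was made.

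The gene table held 40385477 reads in aged TRM, 36021887 in young TRM and 39915663 in young TCR. Each sample had 2 numbered columns of 16084855 to 20245228 reads, which the labels do not explain and which were taken as repeat measurements of 1 sample. With 1 sample a group no difference was tested against the variation between mice or cultures, and intervals are 95% intervals that cover counting error only. Of 8 marker genes of CD8 T cells, 7 were listed (Trac was not), and their summed level was 3984, 4306 and 2794 CPM (a gene's reads relative to the size of its library) in aged TRM, young TRM and young TCR, with none under 1 CPM. Markers of B and plasma cells summed to 24.6, 17.3 and 49.7 CPM in the same order, markers of CD4 T cells to 30.1, 54.2 and 31.0 CPM, and markers of myeloid cells to 26.2, 40.7 and 25.9 CPM. Of the CD4 markers, Foxp3 had 3.71, 33.6 and 1.95 CPM, Cd4 11.6, 12.4 and 10.5 CPM, and Zbtb7b 14.3, 8.03 and 18.1 CPM. Of the 4 myeloid genes compared in young TRM over young TCR, only Mpeg1 was higher, with 15.4, 28.7 and 4.22 CPM. Markers of NK cells, some of which activated CD8 T cells also carry, summed to 404, 279 and 365 CPM, those of red cells and platelets to 11.6, 4.68 and 10.2 CPM, and those of stroma and endothelium to 56.5, 73.1 and 80.2 CPM. These sums differed between the samples beside every result that follows, and their part in the results was not tested.

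Ribosomal protein genes took 7.38% of all reads in aged TRM (7.37% to 7.38%), 8.28% in young TRM (8.27% to 8.29%) and 8.37% in young TCR (8.36% to 8.38%). In the single columns the share was 7.30% and 7.45% in aged TRM, 8.17% and 8.37% in young TRM, and 8.52% and 8.22% in young TCR. Both columns of aged TRM lay below all columns of the young samples, whereas the columns of young TRM and young TCR overlapped. The aged TRM share was 0.891 times that of young TRM, and 0.872 to 0.912 times over the 4 pairings of columns. Young TRM had 0.989 times the share of young TCR, with pairings of columns from 0.958 to 1.02, on both sides of 1. In the authors' TPM, which divide reads by transcript length, the genes made up 19.7%, 22.0% and 21.9% of the total in aged TRM, young TRM and young TCR. In such bulk RNA, fewer cells of a type and less RNA per cell cannot be told apart, and a share also moves with every other gene in the library.

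Both subunits had the smaller share in aged TRM. Core genes of the small subunit took 2.98% of reads in aged TRM and 3.39% in young TRM (0.879 times), and 3.37% in young TCR. Those of the large subunit with the stalk took 4.34% in aged TRM and 4.83% in young TRM (0.897 times), and 4.93% in young TCR.

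Between genes, levels were compared only per length, in TPM. The median core gene had 2467 TPM in aged TRM, 2958 TPM in young TRM and 2779 TPM in young TCR, and 65 or 66 of the 79 lay between 1000 and 5000 TPM in each sample. The highest by the mean over samples was Rpl23a, a protein beside the exit of the peptide tunnel, with 6469, 7084 and 6689 TPM in aged TRM, young TRM and young TCR. Rps2, a small-subunit protein at the entry of the mRNA channel, had 5582, 5105 and 6932 TPM, and Rpl13a, a large-subunit protein, had 5246, 6472 and 5056 TPM in the same order. Below 1000 TPM lay 10, 9 and 10 of the 79 core genes in aged TRM, young TRM and young TCR. Not all of them were low in reads, since TPM also depends on the transcript length used. Rps15a had 291, 381 and 289 TPM in the same order, at 743, 1006 and 757 CPM. Rps6, the small-subunit protein that S6 kinases phosphorylate, had 77.4, 76.8 and 74.8 TPM, and Rpl31 had 214, 269 and 272 TPM. One of the 2 pseudogenes left out, Rpl31-ps12, held 2146 TPM in aged TRM, 2437 TPM in young TRM and 2586 TPM in young TCR, more than Rpl31 itself in every sample. Ribosomal protein genes have many processed pseudogenes with near-identical sequence, and the sources used here do not say how reads that fit several copies were counted, so the levels of single genes, the low ones above all, are uncertain.

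**Figure D1:**
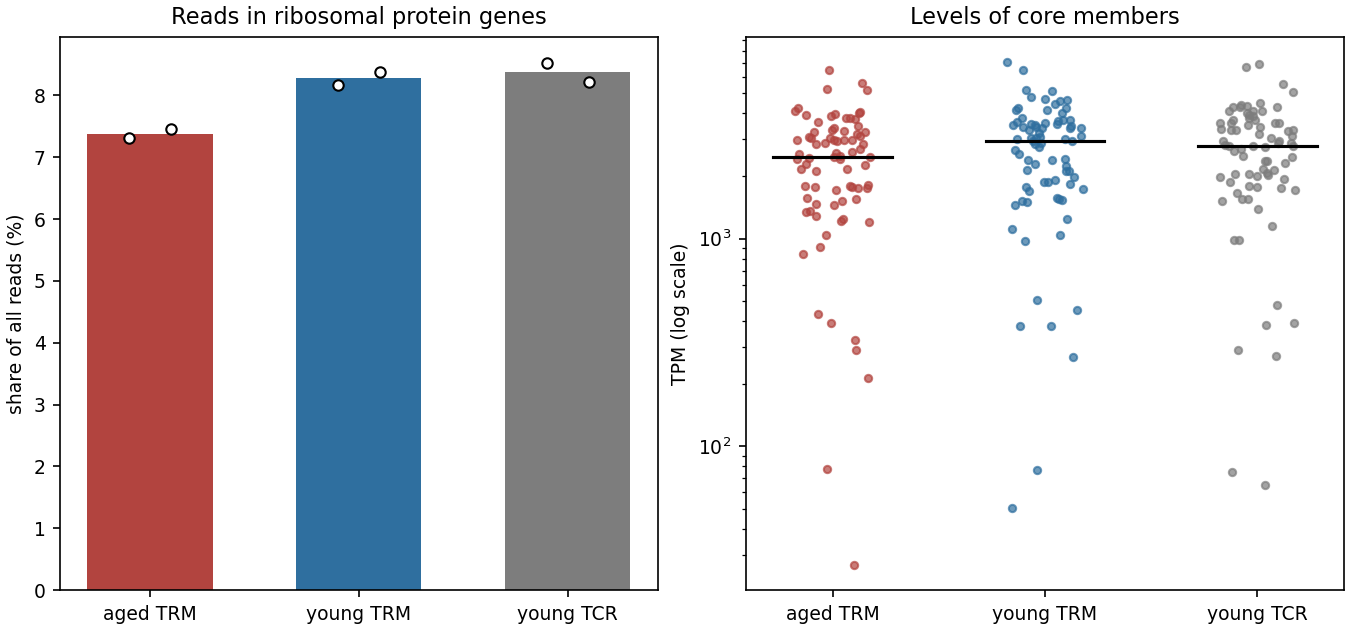
Left, the share of all reads (%) in the 87 ribosomal protein genes in each sample, with the numbered columns as open points. Right, TPM (log scale) of the core genes with the median as a line, without Rpl32l, which was at or near 0. The aged TRM share of 7.38% lies below both young samples, and most core genes lie between 1000 and 5000 TPM in all 3.

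The first comparison set the 1 aged TRM sample beside the 1 young TRM sample, of the same culture and a different age. Counts were scaled by the TMM method, and the log2 ratio of CPM with a pseudocount of 1 was taken for each gene that reached 1 CPM in at least 1 library, while printed folds hold no pseudocount. A gene counts as past 1.2-fold or 2-fold where this log2 ratio is that large (0.263 or 1.0 in size) and the interval of its ratio excludes 1. Of the 87 genes 83 were compared, and Rpl32l, Rpl39l, Rpl3l and Rps27rt were too low. Ribosomal protein genes were lower as a body in aged TRM, by a small amount. The median log2 ratio was -0.23, a fold of 0.853, against -0.01 over all 11575 genes compared, and 77 of 83 ratios were below 0, against 50.8% of all genes. No member was past 2-fold, where 3.4% of all genes were. Past 1.2-fold, 34 of 83 (41.0%) were lower in aged TRM, against a background of 15.7%, and 0 were higher, against 16.2%. Both columns of aged TRM lay below both columns of young TRM for 67 of 83 genes, against 38.1% of all genes, and above both for 5, against 35.9%. Scaled by totals only, 71 of 83 ratios were below 0 and 19 genes were lower past 1.2-fold. In the authors' TPM, by the size of the ratio alone without an interval, 17 were lower.

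The shift was of like size in both subunits. Of the 78 core genes compared, 75 had a ratio below 0, with a median log2 ratio of -0.24 and quartiles of -0.30 and -0.14. The median was -0.23 for 44 large-subunit genes, of which 20 were lower past 1.2-fold, and -0.24 for 31 small-subunit genes, of which 12 were. The stalk gave 2 more, Rplp1 and Rplp2. The log2 ratio of a core gene was set against log2 of its relative transcript length (reads per TPM) and of its mean TPM. The Pearson correlations were -0.01 and 0.37 (Spearman 0.04 and 0.23, n = 78 genes that share the same libraries). Rpl37rt, lowest of the 78 in both ratio and mean TPM, was among them.

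**Figure D2:**
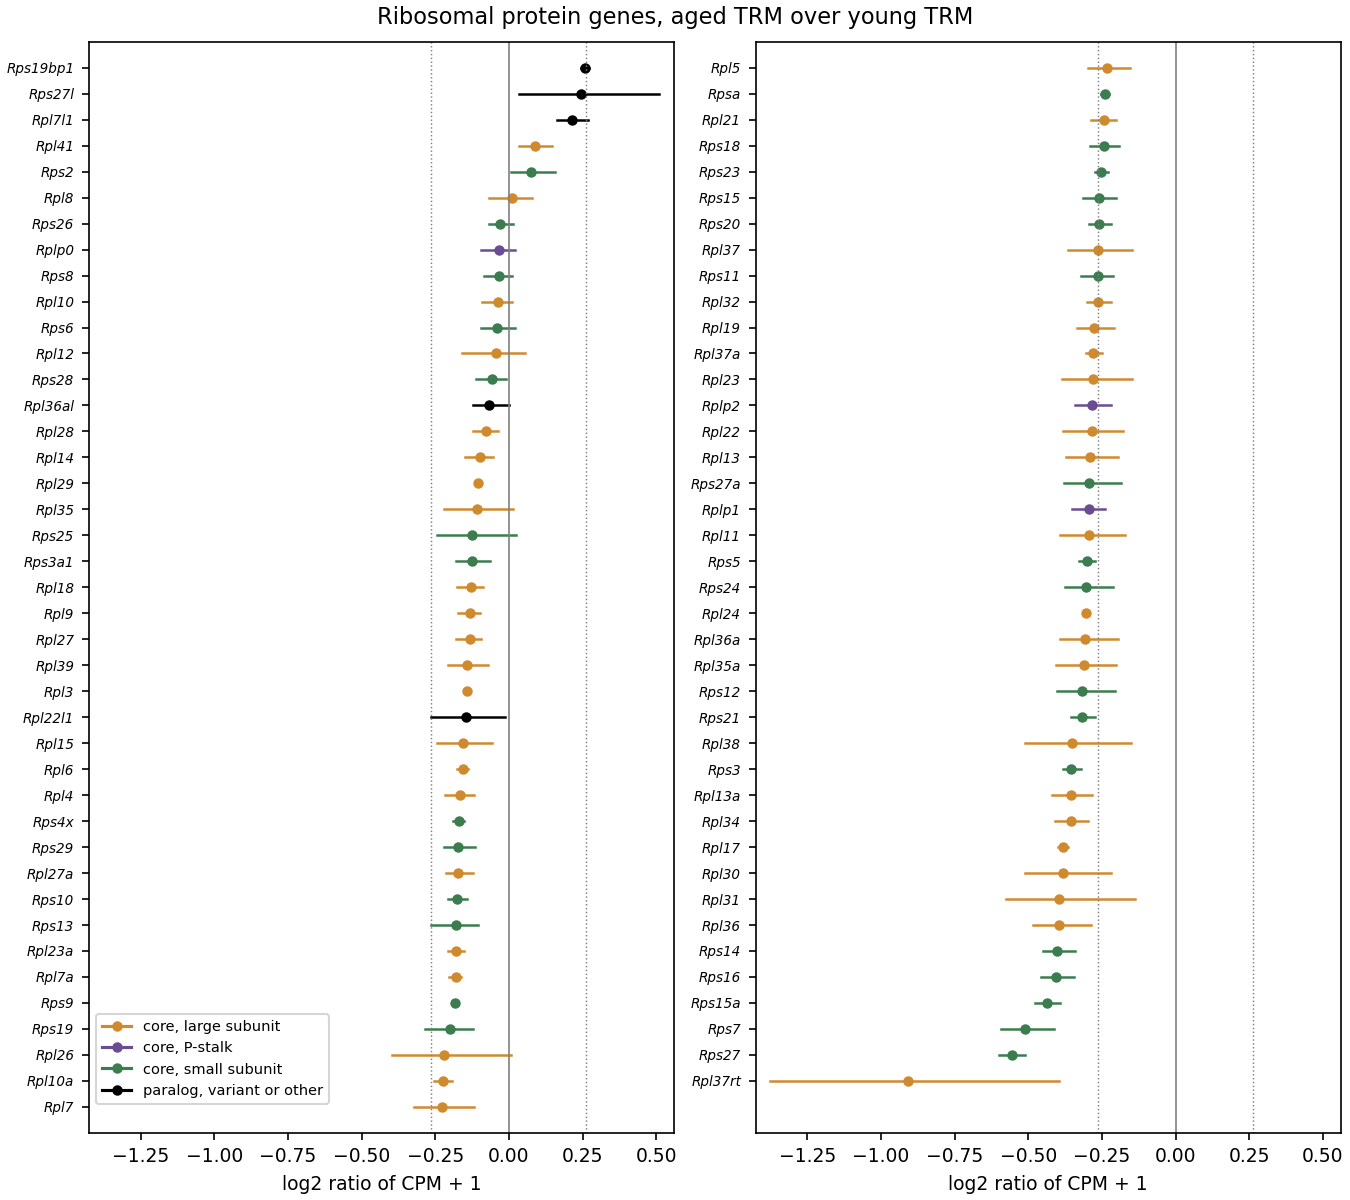
Log2 ratio of CPM + 1, aged TRM over young TRM, for 81 of the 83 ribosomal protein genes compared, from the highest (top left) to the lowest (bottom right). Points are the ratio of the summed columns, lines span the 4 pairings of columns, colours give the subunit and dotted lines mark 1.2-fold. Nearly all genes lie left of 0, and Rps27, Rps7 and Rps15a stand lowest among the abundant ones.

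Among genes of at least 10 CPM, the 4 lowest ratios after that of the retrogene Rpl37rt were those of small-subunit genes. Rps27, a zinc-finger protein of the small subunit, had 323 and 310 CPM in the columns of aged TRM, against 460 and 470 CPM in those of young TRM and 376 and 380 CPM in young TCR. Aged TRM was lowest and young TRM highest, without overlap, and the aged TRM level was 0.679 times that of young TRM (0.664 to 0.695, log2 ratio -0.56). Rps7, which also binds the p53 regulator Mdm2, had 1093 and 1124 CPM in aged TRM, against 1498 and 1650 CPM in young TRM and 1271 and 1204 CPM in young TCR. The groups again did not overlap, and the ratio of aged TRM to young TRM was 0.701 (0.692 to 0.710, log2 ratio -0.51). Rps15a, a small-subunit protein, had 759 and 728 CPM in aged TRM, against 997 and 1013 CPM in young TRM and 756 and 759 CPM in young TCR, a ratio of 0.739 between aged and young TRM (log2 -0.44). Here aged TRM and young TCR overlapped and young TRM stood above both.

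Rps16 followed with 695 CPM in aged TRM and 922 CPM in young TRM, and Rps14, the small-subunit gene lost in the human 5q- syndrome, with 1038 CPM in aged TRM and 1372 CPM in young TRM (log2 ratios -0.41 and -0.40). In the large subunit, Rpl36 had 216 CPM in aged TRM and 284 CPM in young TRM (log2 ratio -0.40). Every column of aged TRM lay below every column of young TRM in these 3 genes. The lowest ratio of all belonged to Rpl37rt, related to Rpl37, at 6.86 and 10.1 CPM in aged TRM, against 13.5 and 19.4 CPM in young TRM. Its log2 ratio of -0.91 ran from -1.38 to -0.39 over the pairings, a wide range for a gene at so low a level.

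The opposite end held few core genes. Rps2 had 2626 and 2695 CPM in aged TRM, against 2418 and 2616 CPM in young TRM and 3555 and 3232 CPM in young TCR (log2 ratio of aged over young TRM 0.07). Rpl41, the smallest ribosomal protein, had 789 and 816 CPM in aged TRM, against 737 and 770 CPM in young TRM and 881 and 892 CPM in young TCR (log2 ratio 0.09). In both genes the columns of aged TRM lay above those of young TRM by less than 1.2-fold, and with scaling by totals only or in TPM their ratios also stayed above 0. Rpl8 and Rps26 had log2 ratios of 0.01 and -0.03, with overlapping columns.

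Among genes with roles beyond the ribosome, Rpl11 and Rpl5, which bind Mdm2 together with a ribosomal RNA when assembly fails, had 663 and 1626 CPM in aged TRM, against 813 and 1910 CPM in young TRM (log2 ratios -0.29 and -0.23). Only Rpl11 was past 1.2-fold. Rps19, the gene most often mutated in human Diamond-Blackfan anaemia, had 690 CPM in aged TRM and 792 CPM in young TRM (-0.20), and Rpl38, which in mouse embryos favours translation of Hox mRNAs, had 169 CPM in aged TRM and 216 CPM in young TRM (-0.35). Rpl22, a large-subunit protein that mouse alpha-beta T cells need for their development, had 351 CPM in aged TRM and 427 CPM in young TRM (-0.28). Rps3, which lines the entry of the mRNA channel and takes part in DNA repair, had 1669 CPM in aged TRM and 2133 CPM in young TRM (-0.35), and Rpsa, also known as a laminin receptor, had 2949 CPM in aged TRM and 3480 CPM in young TRM (-0.24). Of these, Rpl38, Rpl22 and Rps3 were past 1.2-fold, and Rps19 and Rpsa were not.

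The 3 stalk genes differed among themselves. Rplp0, the base of the stalk, had 2655 CPM in aged TRM and 2715 CPM in young TRM (log2 ratio -0.03), with overlapping columns. Rplp1 and Rplp2, the tips that recruit elongation factors, had 627 and 504 CPM in aged TRM, against 768 and 614 CPM in young TRM (-0.29 and -0.28), without overlap. Rpl10, which joins the large subunit late in its assembly, had 1275 CPM in aged TRM and 1308 CPM in young TRM (-0.04), and Rps6 had 52.3 CPM in aged TRM and 53.8 CPM in young TRM (-0.04). The columns of both genes overlapped.

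Genes of the ribosome whose symbols fall outside the series, Fau and Rack1, were on the same side. Fau, a fusion of a ubiquitin-like protein with a small-subunit protein, had 535 CPM in aged TRM and 698 CPM in young TRM (log2 ratio -0.38, past 1.2-fold). Rack1, a scaffold on the small subunit, had 1456 CPM in aged TRM and 1654 CPM in young TRM (-0.18). In each, both columns of aged TRM lay below both of young TRM.

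The second comparison set the 1 young TRM sample, cultured with IL-15 and TGF-beta, beside the 1 young TCR sample, cultured without them. It shares the young TRM sample with the first, so a value that is high or low in young TRM moves both. As a body the ribosomal protein genes stood close to all other genes. The median log2 ratio of young TRM over young TCR was 0.0075 over 84 genes, against 0.02 over all 11588 genes compared, and 41 of 84 ratios were below 0, against 48.1%. The sign of so small a median changed with the scaling, and it was -0.047 with scaling by totals only. No member was past 2-fold, where 7.78% of all genes were. Past 1.2-fold, 5 were higher in young TRM, against 22.9% of all genes, and 7 were lower, against 21.7%. With column 1 alone 15 were lower, with column 2 alone 11 were higher, and with a pseudocount of 5 CPM 4 were lower. Both columns of young TRM lay above both of young TCR for 32 genes, against 41.4% of all genes, and below both for 27, against 37.5%.

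**Figure D3:**
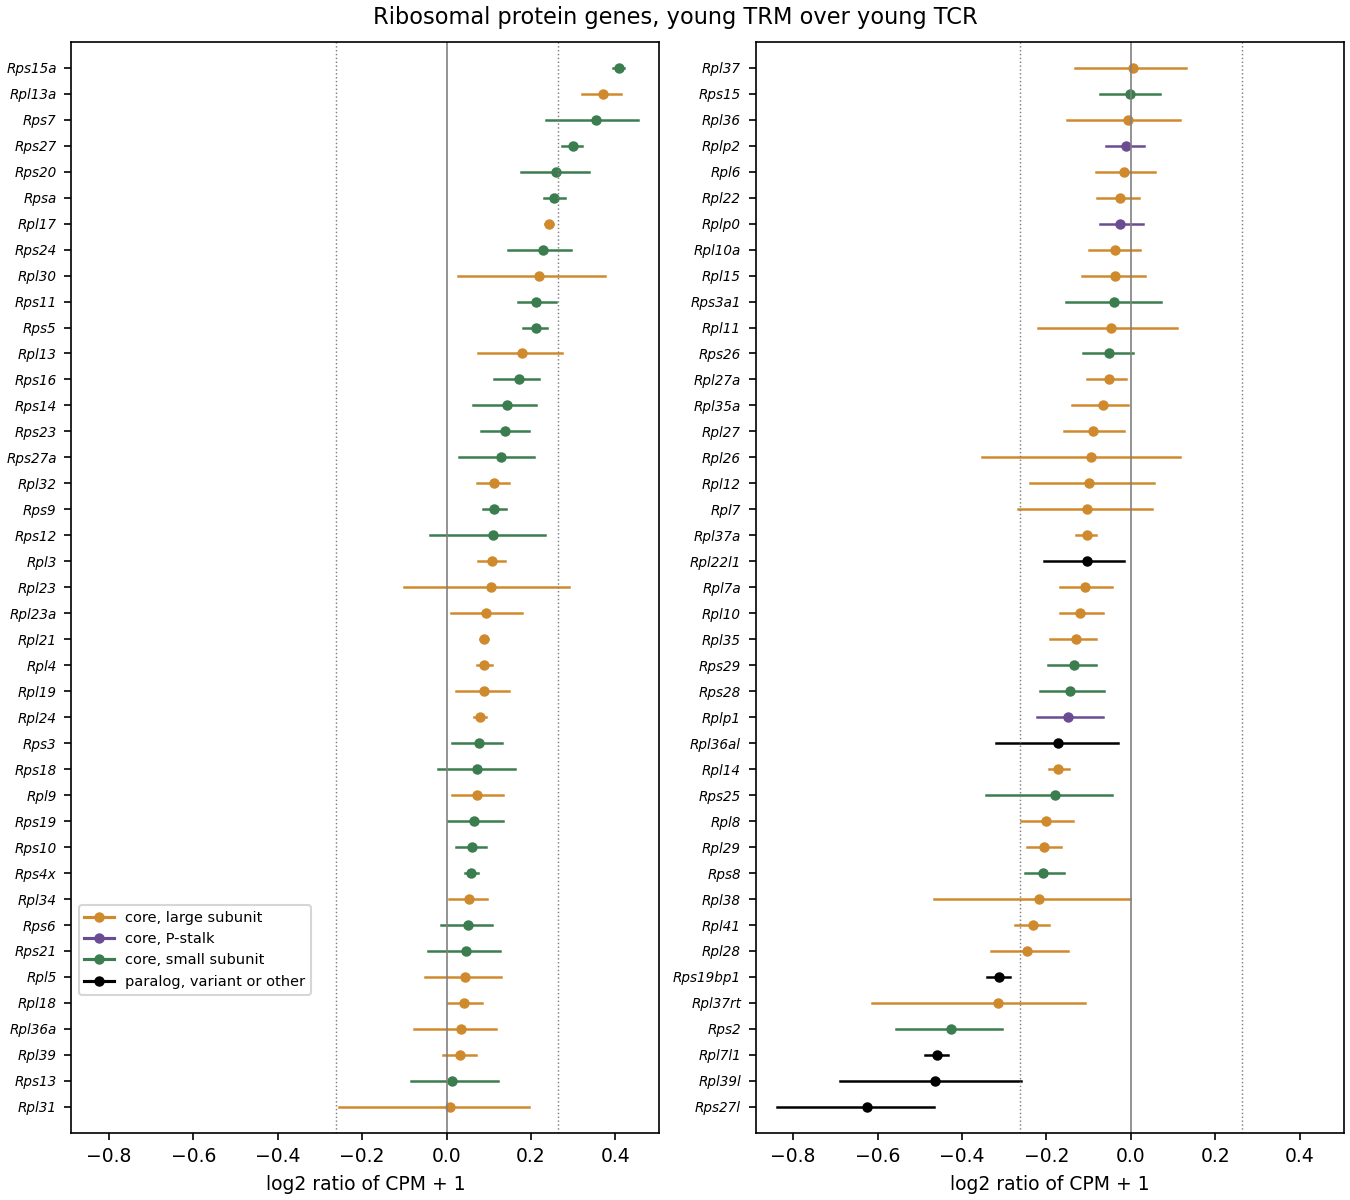
Log2 ratio of CPM + 1, young TRM over young TCR, for 82 of the 84 ribosomal protein genes compared, from the highest (top left) to the lowest (bottom right), with points, lines and colours as in the plot for aged TRM over young TRM. The genes spread on both sides of 0, and Rps27l, Rpl39l and Rpl7l1, none of them a core gene, are lowest. Rpl39l reached 1 CPM only in young TCR.

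The 5 higher genes included Rps15a, Rpl13a, Rps7 and Rps27. Rps15a had 997 and 1013 CPM in young TRM, against 756 and 759 CPM in young TCR (1.33-fold, 1.31 to 1.35). Rpl13a, which in human cells also serves in a complex that silences inflammatory mRNAs, had 3201 and 3361 CPM in young TRM, against 2526 and 2563 CPM in young TCR (1.29-fold, 1.28 to 1.30). The log2 ratios of Rps7 and Rps27 were 0.35 and 0.30, and none of these 4 overlapped between the samples. All 4 were lower in aged TRM than in young TRM past 1.2-fold, Rpl13a at 2572 CPM in aged TRM, and the young TRM sample is part of both ratios. Small-subunit genes had a median log2 ratio of 0.07, with 22 of 31 above 0, and large-subunit genes a median of -0.01, with 21 of 44 above 0. Aged TRM and young TCR differ in both age and cytokines and are given as values only. The median log2 ratio of aged TRM over young TCR was -0.20 over 84 genes, with 81 of 84 below 0, against 49.1% of all genes. In young TRM over young TCR, the Pearson correlation of core gene ratios with log2 of relative transcript length was 0.32. The Spearman correlation was 0.25 (n = 78).

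The 7 lower genes included the core gene Rps2. It was 0.745 times as high in young TRM as in young TCR (0.738 to 0.751, log2 ratio -0.43), at the values given above. They also included Rps27l, Rpl39l, Rpl7l1, Rpl37rt and Rps19bp1, namely 4 paralogs or retrogenes and the nucleolar protein. Rpl39l passed the filter of 1 CPM only through young TCR, where it was higher, so its place among them carries no weight. With a filter of 10 CPM the lower genes numbered 6.

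Of the 4 paralogs compared in aged TRM over young TRM, 2 had log2 ratios below 0 and 2 above 0. Rps27l, a paralog of Rps27 that p53 induces, had 97.5 and 107 CPM in aged TRM, 75.1 and 95.2 CPM in young TRM, and 135 and 132 CPM in young TCR. Young TRM was lowest without overlap, at 0.646 times the level of young TCR (0.618 to 0.675, log2 ratio -0.62), and the log2 ratio of aged over young TRM was 0.25 with pairings from 0.03 to 0.51. Per length, Rps27l stood at 20.7% of the TPM of Rps27 in aged TRM, at 11.7% in young TRM and at 22.7% in young TCR. In the columns this ratio was 19.3% and 22.3% in aged TRM, 10.4% and 13.0% in young TRM, and 23.1% and 22.3% in young TCR, so that young TRM lay apart. The log2 ratios of aged over young TRM were 0.25 for Rps27l and -0.56 for Rps27.

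Rpl7l1, a nucleolar relative of Rpl7 that takes part in building the large subunit, had 126 and 132 CPM in aged TRM, 109 and 112 CPM in young TRM, and 154 and 152 CPM in young TCR. Its level was 3.06%, 2.26% and 2.89% of the TPM of Rpl7 in aged TRM, young TRM and young TCR. Rpl36al, a close copy of Rpl36a, stood at 45.5%, 38.6% and 44.4% of its partner in the same order, with single columns from 37.6% to 47.2%. Rpl22l1, which can take the place of Rpl22, was 2.80, 2.54 and 2.69 times as high as Rpl22 per length. In these 4 pairs the ratio was lowest in young TRM, the sample shared by both comparisons, whereas Rpl37rt stood at 3.17%, 5.17% and 6.63% of the TPM of Rpl37 in aged TRM, young TRM and young TCR, lowest in aged TRM. Rpl39l, near the limit of counting, stood at 0.112%, 0.0931% and 0.194% of Rpl39. Reads of close copies may be assigned to either partner.

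**Figure D4:**
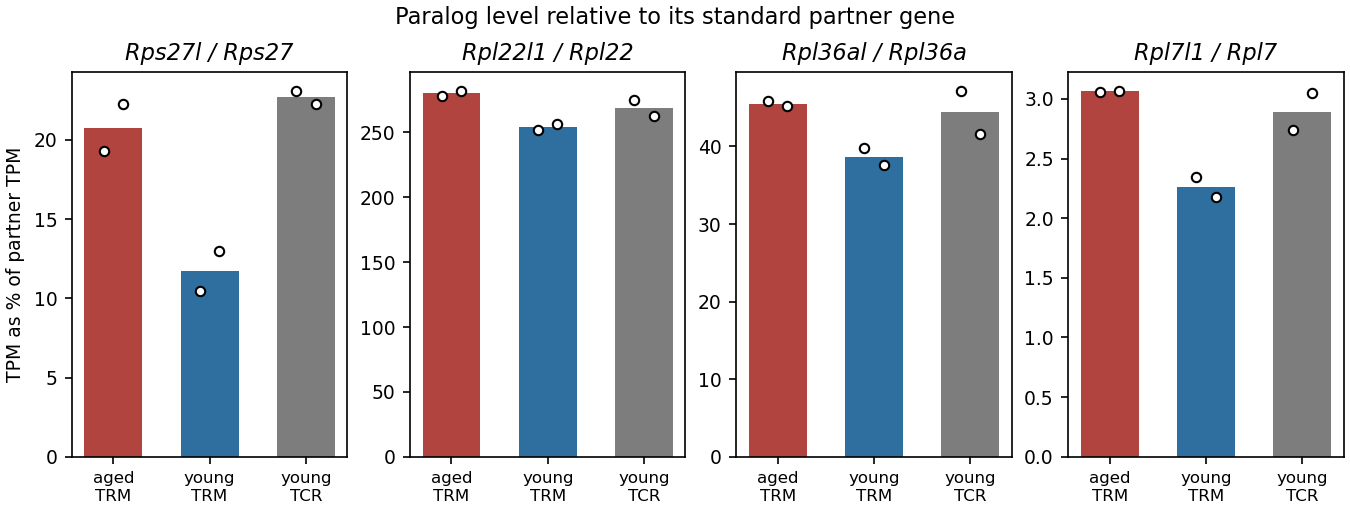
TPM of 4 paralogs as a percentage of the TPM of the core gene each resembles, in aged TRM, young TRM and young TCR. Bars give the sample and open points its numbered columns. Rps27l reaches 20.7%, 11.7% and 22.7% of Rps27, with young TRM lowest in every panel.

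The other relatives were scarcely present. Rpl39l, a paralog that mice use in male germ cells, had 0.713 CPM in aged TRM, 0.710 CPM in young TRM and 1.36 CPM in young TCR. Rpl3l, a paralog of heart and skeletal muscle, had 0.172, 0.142 and 0.0247 CPM in the same order, and Rpl32l 0.0984, 0.142 and 0 CPM. Rps27rt, a retrogene of Rps27, had 0.592, 2.22 and 1.13 CPM in column 1 of aged TRM, young TRM and young TCR, and 0 in column 2 of each. Rps19bp1 had 16.6, 13.7 and 17.2 CPM in aged TRM, young TRM and young TCR, with log2 ratios of 0.26 for aged over young TRM and -0.31 for young TRM over young TCR.

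The promoters of the genes at both ends of the first comparison are shown, because the TOP element that sets ribosomal protein mRNAs apart begins at the start of the transcript. Each line gives 80 bases before and 30 bases from the annotated start in RefSeq (build GRCm38.p6), read along the transcribed strand. For Rps2 the start used lies inside the gene, whose annotated span is chr17:24718121-24721927. Capitals mark each cytosine followed by at least 6 pyrimidines where that run begins within 20 bases of the start, or CCGGAAG and its reverse complement CTTCCGG, the core of the site of ETS factors. The first 4 had the lowest and the last 4 had high log2 ratios of aged over young TRM among abundant genes with 1 annotated promoter in the table.
Rps27: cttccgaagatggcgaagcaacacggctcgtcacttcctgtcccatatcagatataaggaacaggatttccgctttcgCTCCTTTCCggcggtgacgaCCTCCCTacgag
Rps7: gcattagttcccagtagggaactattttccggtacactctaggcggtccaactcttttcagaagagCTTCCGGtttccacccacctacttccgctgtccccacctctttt
Rps15a: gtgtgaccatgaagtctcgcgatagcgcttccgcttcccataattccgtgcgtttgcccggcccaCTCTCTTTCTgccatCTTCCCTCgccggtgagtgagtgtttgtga
Rps16: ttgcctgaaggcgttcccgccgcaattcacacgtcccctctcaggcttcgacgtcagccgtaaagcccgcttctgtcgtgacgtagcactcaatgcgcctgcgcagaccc
Rpl7l1: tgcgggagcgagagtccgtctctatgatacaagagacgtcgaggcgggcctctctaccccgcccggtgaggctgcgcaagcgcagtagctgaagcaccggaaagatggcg
Rpl41: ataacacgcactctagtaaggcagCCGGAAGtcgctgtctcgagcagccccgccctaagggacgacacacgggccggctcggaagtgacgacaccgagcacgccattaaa
Rps2: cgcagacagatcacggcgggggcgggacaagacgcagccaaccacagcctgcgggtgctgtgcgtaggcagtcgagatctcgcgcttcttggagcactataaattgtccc
Rps26: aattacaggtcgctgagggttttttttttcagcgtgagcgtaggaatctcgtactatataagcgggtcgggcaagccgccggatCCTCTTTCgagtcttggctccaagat
They lie at chr3:90213619-90213728 (Rps27, minus strand), chr12:28635924-28636033 (Rps7, minus), chr7:118116118-118116227 (Rps15a, minus), chr7:28350609-28350718 (Rps16, plus), chr17:46782627-46782736 (Rpl7l1, minus), chr10:128549139-128549248 (Rpl41, minus), chr17:24719983-24720092 (Rps2, plus) and chr10:128626477-128626586 (Rps26, minus). Marked pyrimidine runs were found in Rps27, where they begin 2 bases before and 18 bases after the annotated start, in Rps15a, where they begin 15 bases before it and at the start itself, and in Rps26, 4 bases after it. Within 20 bases of the annotated start, runs were thus held by Rps27 and Rps15a but not by Rps7 and Rps16. The pyrimidine run that ends the Rps7 line begins beyond this window and was not marked. At the other end Rps26, with a log2 ratio of -0.03, held a run, and Rpl7l1 and Rpl41 did not. None was marked for Rps2, but its start lies inside the gene, so the line cannot show whether the gene holds one.

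Over all core genes, RefSeq promoters were found for 59 of 79 genes, 69 promoters in all. The pyrimidine run was in 36 of them (52.2%), against 21.2% of 32851 mouse promoters of the same table. CCGGAAG, on either strand within 250 bases before to 50 after the start, was in 36.2% of core promoters and 8.86% of all promoters. Matches of different motifs could overlap, and a match describes the letters only. Of the core genes lower past 1.2-fold in aged TRM with a promoter, 14 of 24 (58.3%) held the run, and of the other core genes 19 of 34 (55.9%) did. CCGGAAG was in 9 of the 24 (37.5%) and 15 of the 34 (44.1%).

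Other genes of translation give the context of these values. In aged TRM over young TRM, genes of ribosome biogenesis, which build the particle in the nucleolus, had a median log2 ratio of 0.18, and 16 of 69 (23.2%) were higher past 1.2-fold while 0 were lower, against 16.2% higher and 15.7% lower over all genes. Rrp12, in yeast a factor of ribosome export from the nucleus, had 56.6 CPM in aged TRM and 39.8 CPM in young TRM (0.49). Translation initiation factors had a median of 0.15, with 8 of 38 (21.1%) higher and 0 lower past 1.2-fold, and mitochondrial ribosomal proteins, which serve the separate ribosome of mitochondria, 0.11, with 14 of 78 (17.9%) higher, near the share of all genes, and 0 lower. Mrps6 had the highest mitochondrial ratio, at 59.7 CPM in aged TRM and 30.8 CPM in young TRM (0.93). The medians of these 3 lists were thus above 0 and that of core ribosomal proteins was -0.24, beside -0.01 for all genes. Aged TRM over young TCR, which differ in age and cytokines, put all of them below 0. The medians there were -0.15 for biogenesis, -0.07 for initiation, -0.14 for mitochondrial and -0.19 for core ribosomal proteins, beside 0.01 for all genes.

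Of 12 genes listed under translation elongation, 2 were higher and 2 lower past 1.2-fold, with a median of -0.03. This was 16.7% each way, near the 16.2% and 15.7% of all genes. The list also holds genes that are not elongation factors, such as Tpt1 and Etf1. The 2 higher ones were Eef1e1 and Etf1 (log2 ratios 0.45 and 0.35), and the 2 lower ones were Tpt1 and Eef1a1. Tpt1, which encodes a growth-related protein, had 2610 CPM in aged TRM, 3603 CPM in young TRM and 2448 CPM in young TCR (-0.46 for aged over young TRM). Eef1a1, which brings aminoacyl-tRNA to the ribosome, had 11511, 14180 and 11963 CPM in the same order (-0.30).

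In young TRM over young TCR the same lists had medians of -0.34 for biogenesis, with 1 of 69 higher and 45 (65.2%) lower past 1.2-fold, -0.19 for initiation, with 0 of 38 higher and 13 (34.2%) lower, and -0.29 for mitochondrial ribosomal proteins, with 0 of 78 higher and 42 (53.8%) lower. Over all genes 22.9% were higher and 21.7% lower. Grwd1, a histone-binding factor of ribosome assembly, had 21.1 CPM in young TRM and 40.8 CPM in young TCR (-0.92). Core ribosomal proteins had a median of 0.03, with 5 of 78 higher and 3 lower. Genes of the elongation list had a median of -0.22, with 1 of 12 higher, Tpt1, and 4 (33.3%) lower.

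**Figure D5:**
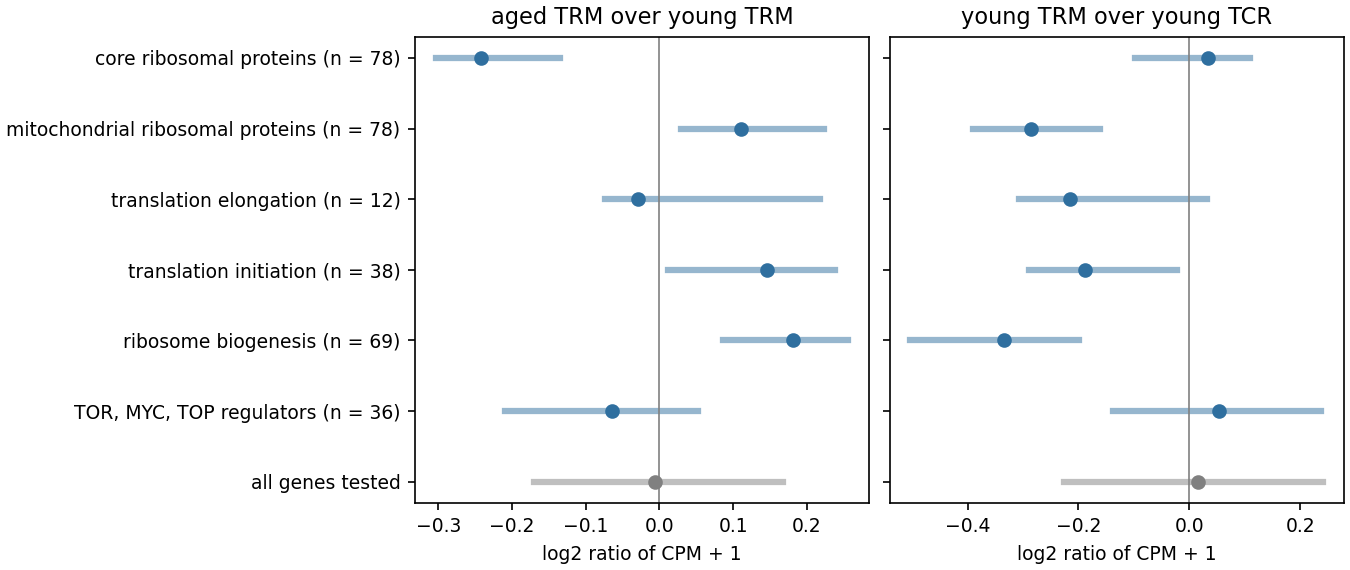
Median log2 ratio of CPM + 1 (points) and quartiles (bars) for lists of translation genes and for all genes compared, in aged TRM over young TRM (left) and young TRM over young TCR (right). Core ribosomal proteins lie at -0.24 and 0.03, and ribosome biogenesis at 0.18 and -0.34.

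Genes listed as regulators of ribosomal protein genes and of their translation had medians near 0. The list mixes activators and inhibitors, so these medians give no net direction of regulation. In aged TRM over young TRM 2 of 36 (5.56%) were higher and 8 (22.2%) lower past 1.2-fold (median -0.06), against 16.2% and 15.7% of all genes. In young TRM over young TCR 9 (25%) were higher and 2 (5.56%) lower (median 0.05), against 22.9% and 21.7%. Mxd1, which opposes the transcription factor Myc, had 91.5 CPM in aged TRM, 170 CPM in young TRM and 51.2 CPM in young TCR, and Max, the partner of both, had 189, 231 and 102 CPM in the same order. These were the 2 genes of the list that rose past 2-fold in young TRM over young TCR.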

How the data were processed

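The deposited table gave each gene an estimated count of reads, not always whole, and its TPM, both made by the authors,, in 2 numbered columns per sample, per the file headers. Per the labels' protocols, total RNA was purified on columns and standard Illumina libraries were sequenced on a HiSeq, and the submitters' processing notes name Bowtie and GRCm38 (mm10). For the counting program and the annotation, the sources used here give no name. A further 24 value columns were not used.

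These estimated counts, as deposited, were rounded and the columns of a sample summed. Libraries were scaled by TMM (edgeR 4.0.16, R 4.3.3; factors 1.01, 0.978 and 1.02 for aged TRM, young TRM and young TCR). Ratios of CPM + 1 on the log2 scale and 95% Clopper-Pearson intervals were computed over the whole table. This was done in Python 3.11.15 (numpy 2.4.6, pandas 2.3.3, scipy 1.17.1) for genes of at least 1 CPM in 1 library. The rule was first tried on simulated counts of genes well above 1 CPM, with counting error only. Such counts do not show how the rule performs near 1 CPM or with variation between samples. No p-value was computed. Reads are not independent molecules. Genes named are the 8 with the highest and lowest ratios among members of at least 10 CPM, the 6 highest and 4 lowest core genes by TPM, up to 4 members of each other list with the largest ratios, all paralogs, the stalk genes, Fau, Rack1 and a list of genes with known roles. Some genes the rule takes are not reported here. Rpl31-ps12 was added after its values were seen. The members, lists and rules were chosen with earlier results of these data known. Promoters came from RefSeq tables of GRCm38.p6. Alternatives changed the scaling, pseudocount, filter, unit, column or gene set.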

Additional observations from a re-analysis of the deposited data

How the results depend on the processing

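No paired analysis was possible because each group had 1 sample, and leaving out a replicate was not possible for the same reason. In aged TRM over young TRM the median log2 ratio of -0.23 became -0.19 with scaling by totals only, -0.23 with no filter on low values, -0.17 in the authors' TPM, -0.20 with column 1 alone, -0.24 with column 2 alone, and -0.24 with core genes only, with or without Rpl32l and Rpl37rt, the last being chosen after seeing the data. Genes lower past 1.2-fold, 34 as reported, numbered 19 with totals only and 17 in TPM, and genes higher, 0 as reported, numbered 2 with totals only, 3 in TPM and 2 with column 1. Counts in TPM rest on the size of the log2 ratio alone, without the interval. Rps27rt was lower past 2-fold, the count being 1, in TPM and with column 1. In young TRM over young TCR the median of 0.0075 became -0.047 with totals only, -0.0014 with median-of-ratios factors, 0.012 with no filter, -0.011 in TPM, -0.084 with column 1, 0.050 with column 2, 0.033 with core genes only, with or without the 2 genes. The 7 genes lower past 1.2-fold became 4 with a pseudocount of 5 CPM, 15 with column 1, 3 with core genes only and 2 without the 2 genes, and the 5 higher became 11 with column 2. The cause was not tested. The share of reads with column 1, with column 2 and with core genes only was 7.30%, 7.45% and 7.32% in aged TRM, 8.17%, 8.37% and 8.22% in young TRM, and 8.52%, 8.22% and 8.30% in young TCR. The median TPM with column 1 and with column 2 was 2464 and 2492 in aged TRM, 2853 and 2890 in young TRM, and 2787 and 2747 in young TCR. Young TRM had the fewest reads.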

Other observations

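The median log2 ratio of column 1 over column 2 was taken over 83, 83 and 84 ribosomal protein genes. It was -0.03 in aged TRM, -0.06 in young TRM and 0.04 in young TCR, against 0.0002, 0.009 and -0.008 over all genes. The median size of the ratio was 0.04, 0.07 and 0.05, against 0.06, 0.07 and 0.07 over all genes. Its SD was 0.07, 0.12 and 0.07, against 0.14, 0.16 and 0.15 over all genes, which reach down to 1 CPM. The pseudogene Rpl31-ps12 had 469 CPM in aged TRM, 555 CPM in young TRM and 580 CPM in young TCR, a log2 ratio of -0.24 for aged over young TRM, which is near the median of the core genes.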
